A study of Homo sapiens with 38 samples.

Results

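The measurements below describe 8 genes that encode chaperones and calcium-binding folding factors of the endoplasmic reticulum (ER): HSPA5, HSP90B1, HYOU1, CALR, CANX, SDF2L1, CRELD2 and MANF. All probe sets that the array's annotation gives to these symbols were taken, 18 of the 54675 on the array. Of these, 16 carry 1 gene symbol, and 15 of the 16 reached the filter level, 40% of the trimmed mean of all probe sets, on all 38 arrays. The remaining CANX probe set, 238138_at, stayed below that level on every array and was not tested. The 2 probe sets annotated jointly to HSP90B1 and the microRNA gene MIR3652, 200598_s_at and 200599_s_at, were not used. For each gene, the probe set whose mean log2 signal was highest is called the main one.

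RNA came from 2 human cancer cell lines, HT-1080 (fibrosarcoma) and HT-29 (colorectal adenocarcinoma), and from derivatives of each that lack mitochondrial DNA, called rho0. Treated cells were exposed to 2-deoxyglucose (2DG), which competes with glucose, to glucose starvation (GS), or to tunicamycin (TM), which blocks N-linked glycosylation. HT-1080 cells under 2DG, GS or TM also received respiratory chain inhibitors on 10 arrays: metformin (Met, 10 mM), buformin (Bu, 300 µM) or phenformin (Phen, 100 µM) with 2DG, and rotenone (Rot, 100 nM) or antimycin A (AA, 10 ng/ml) with 2DG, GS or TM. Versipelostatin (VST, 3 µM), a compound known to block chaperone induction in glucose-starved cells, was given on 3 arrays. In all, 26 treated arrays were set against 12 controls.

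With compounds there was 1 array each of HT-1080 2DG+Met, 2DG+Bu, 2DG+Phen, 2DG+Rot, 2DG+AA, 2DG+VST, GS+Rot, GS+VST, TM+Rot and TM+AA and of HT-29 GS+VST. GS+Rot_S and GS+AA_S were further HT-1080 arrays whose samples included floating cells, marked S in the labels. The rho0 cells gave 1 array each of HT-1080 rho0 2DG, TM and GS_S (floating cells included) and of HT-29 rho0 GS. Stress without compound was measured on 3 arrays for 2DG, 2 for GS and 1 for TM in HT-1080 and on 3 for GS in HT-29. The unstressed controls were 1 HT-29 rho0 array, 3 HT-29, 2 HT-1080 rho0 and 6 HT-1080. Exposure lasted 18 h, except 14 h for HT-29 rho0 GS and for HT-29 GS replicate 3, because the labels describe severe damage of HT-29 rho0 cells at 18 h. The sources used here state neither the dose of 2DG nor that of TM, and they do not say whether a rho0 line is 1 clone. No compound was given without a stress, so that the action of a compound on unstressed cells was not measured. The labels do not say that replicates were separate cultures, so each p-value reflects the spread among these samples and no more.

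Proteins that enter the secretory pathway fold in the ER lumen, where HSPA5 (also called BiP or GRP78) binds unfolded chains, HSP90B1 (GRP94) matures selected clients, and the lectins CALR and CANX hold glycoproteins through their sugar chains. When unfolded proteins accumulate, the sensors ATF6, IRE1 and PERK start the unfolded protein response. ATF6 and the IRE1 product XBP1 raise transcription of the chaperones, whereas PERK acts through ATF4 on amino acid and redox genes. HYOU1 is a large relative of Hsp70 that exchanges nucleotide on HSPA5, SDF2L1 works with the ER co-chaperones of the Hsp40 family, and CRELD2 and MANF are secretable ER-stress proteins of which MANF binds HSPA5.

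The promoters of this family are shown because the ER stress response element (ERSE), which is known to be bound by NF-Y together with ATF6, was defined on HSPA5, HSP90B1 and CALR themselves. Its presence in those 3 genes is therefore no independent observation. Windows of 250 bases before to 50 bases after each annotated start were taken from RefSeq on GRCh38.p14, in which all 8 genes matched. The letters CCAAT and CCACG with 9 bases between them were searched on both strands. They occurred in the windows of 5 of the 8 genes and in 27 of all 35116 windows (0.0769%). A shorter form, ERSE-II, with the letters ATTGG and CCACG and 1 base between them, was added to the search after the first result and occurred in 2 further genes and in 19 of all windows (0.0541%). MANF had neither in its window, and none of the 8 genes had both. Only exact matches of the fixed letters were counted, so forms that differ from them were not looked for. The matches are written below on the strand that reads as the motif, with the fixed letters in capitals.
HSPA5 ERSE, chr9:125241391-125241409, 66 bases before the start: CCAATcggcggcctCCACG
HSP90B1 ERSE, chr12:103930216-103930234, 194 bases before the start: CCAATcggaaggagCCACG
HSP90B1 second ERSE, chr12:103930321-103930339, 89 bases before the start: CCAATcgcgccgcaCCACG
CALR ERSE, chr19:12938384-12938402, 225 bases before the start: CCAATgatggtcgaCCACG
CANX ERSE, chr5:179698778-179698796, 151 bases before the start: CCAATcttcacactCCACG
CRELD2 ERSE, chr22:49918554-49918572, 80 bases before the start: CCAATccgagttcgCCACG
HYOU1 ERSE-II, chr11:119057380-119057390, 185 bases before the start: ATTGGaCCACG
HYOU1 second ERSE-II, chr11:119057274-119057284, 79 bases before the start: ATTGGaCCACG
SDF2L1 ERSE-II, chr22:21642114-21642124, 188 bases before the start: ATTGGtCCACG

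The HSPA5 and HSP90B1 (194 bases before the start) and CANX matches lie on the strand of their gene, and the others lie on the opposite strand. CANX has 4 windows in the table, and 3 of them hold the same match at different distances from their starts. Whole windows are given for 3 genes on which the results below turn, 5′ to 3′ on the strand of the gene and with the match in capitals: HSPA5 on the minus strand, and SDF2L1 and CRELD2 on the plus strand.
HSPA5, chr9:125241294-125241593: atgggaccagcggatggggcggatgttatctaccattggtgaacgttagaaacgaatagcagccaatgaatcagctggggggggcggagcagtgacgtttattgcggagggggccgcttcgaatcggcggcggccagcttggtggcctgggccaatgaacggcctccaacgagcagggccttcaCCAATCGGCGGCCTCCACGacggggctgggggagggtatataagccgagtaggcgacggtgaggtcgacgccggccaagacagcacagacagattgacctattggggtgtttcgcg
SDF2L1, chr22:21642052-21642351: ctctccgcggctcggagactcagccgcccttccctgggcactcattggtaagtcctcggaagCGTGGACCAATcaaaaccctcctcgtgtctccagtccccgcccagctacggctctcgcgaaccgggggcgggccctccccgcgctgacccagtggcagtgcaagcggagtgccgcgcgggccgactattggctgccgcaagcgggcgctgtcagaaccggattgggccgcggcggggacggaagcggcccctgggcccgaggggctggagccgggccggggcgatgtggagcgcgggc
CRELD2, chr22:49918384-49918683: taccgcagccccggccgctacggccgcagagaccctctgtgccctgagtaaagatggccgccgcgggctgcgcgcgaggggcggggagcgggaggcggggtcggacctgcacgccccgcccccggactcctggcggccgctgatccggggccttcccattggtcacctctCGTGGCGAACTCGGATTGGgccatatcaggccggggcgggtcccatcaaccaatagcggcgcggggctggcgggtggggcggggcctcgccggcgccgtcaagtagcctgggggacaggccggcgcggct
A match is a description of letters, and binding at these places was not measured.

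The labels were checked on the arrays. The 10 probe sets of 7 protein-coding mitochondrial genes had scaled signals of at most 16 on the 7 rho0 arrays and of at least 28.7 on the other 31 arrays. Of 10 epithelial markers 9 were higher in HT-29, and of 10 mesenchymal markers 7 were higher in HT-1080. Before scaling, the trimmed mean of all probe sets ranged between 89.5 and 102 where a compound was added to 2DG or GS (11 arrays) and between 90.2 and 113 in stressed rho0 cells (4 arrays), against 122 to 131 on the 9 arrays of stress alone and 110 to 136 on the 12 controls. On the 2 TM arrays with an inhibitor it was 118 to 119. Every array was therefore scaled to a common trimmed mean, and a change is the log2 difference between a treated array and the 1 control array its description names. With the signals as deposited, the median of all tested probe sets moved by -0.45 in 2DG with inhibitors against 2DG and by -0.40 in GS with inhibitors against GS. The cause of these shifts was not tested. For a single gene measured in RNA of whole cultures, fewer expressing cells and less of its RNA per cell cannot be told apart.

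**Figure D1:**
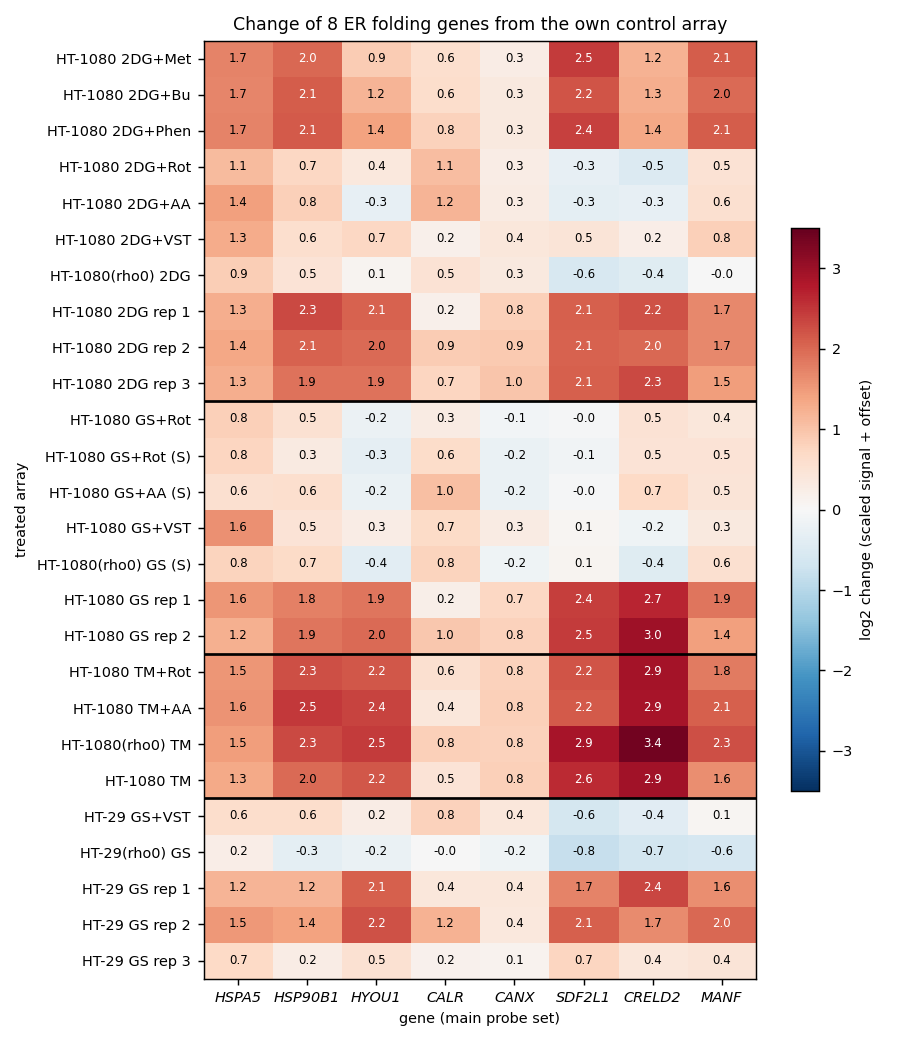
Log2 change of the main probe set of each of the 8 genes (columns) on each of the 26 treated arrays (rows) from its own control array, with arrays grouped by stress and compound or rho0 arrays above the stress alone. SDF2L1 and CRELD2 were below their control with 2DG plus Rot or AA and in rho0 cells with 2DG, and over 2 log2 units above it on every TM array.

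Under each stress alone, the 8 genes stood above their own control on every HT-1080 array. HSPA5 had scaled signals of 10285, 9643 and 8885 on the 2DG arrays, against 4242, 3746 and 3656 on their controls. On the GS arrays it had 9891 and 9099.5, against 3355 and 3834 on their controls, and on the TM array 9688, against 3834. No treated array overlapped any of the 6 controls, and the log2 changes were 1.31 with 2DG, 1.40 with GS and 1.41 with TM (limma SE 0.13, 0.15 and 0.20; adjusted p = 0.000307, 0.00257 and 0.0465). Fitted changes can differ slightly from the change of a single array, because arrays that share a control are fitted together. At an adjusted p under 0.05, the threshold for a call, 7 of the 8 main probe sets rose with 2DG, where 4.71% of all 21480 tested probe sets were called up. Under GS 7 of 8 rose (3.6% of all), and under TM, with 1 array, 3 of 8 rose (0.0279% of all, or 6 probe sets). The median change over the 8 genes was 1.79 with 2DG, 1.74 with GS and 1.85 with TM, against medians between -0.018 and 0.0075 over all tested probe sets.

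Among the partners of HSPA5, HYOU1 rose by 1.98 with 2DG and 1.93 with GS (adjusted p = 0.00104 and 0.00471). On the TM array its change was 2.16 (SE 0.39, adjusted p = 0.123), a larger estimate that did not pass the threshold with 1 array. HSP90B1 rose under all 3 stresses, to 7502, 6876 and 6279.9 with 2DG, against 1501, 1645 and 1689.5 on the controls. This corresponded to 4.25-fold with 2DG, 3.54-fold with GS and 3.91-fold with TM (adjusted p = 0.000169, 0.00273 and 0.0465). SDF2L1 also rose under all 3, by 2.08, 2.44 and 2.59 (SE 0.20, 0.24 and 0.32; adjusted p = 0.000307, 0.00208 and 0.0345). Its 3 changes with 2DG, 2.08, 2.06 and 2.09, were the closest together of the 8 genes.

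Among the main probe sets, that of CRELD2 had the largest changes with GS and TM. Its scaled signal was 2005 and 3280.3 with GS, against 312 and 411 on the controls, and 3165 with TM, against 411. The change was 2.82 with GS and 2.18 with 2DG (SE 0.32 and 0.26; adjusted p = 0.00257 and 0.00102), and 2.85 with TM (adjusted p = 0.0544). MANF rose by 1.60 with 2DG and 1.66 with GS (adjusted p = 0.00193 and 0.00608). The membrane lectin CANX rose least among those called, by 0.90 and 0.77 (adjusted p = 0.000307 and 0.00357). The main CALR probe set did not pass in any HT-1080 stress, with changes of 0.61, 0.58 and 0.30 (adjusted p = 0.0891, 0.188 and 0.997), whereas another CALR probe set, 200935_at, rose by 1.20 with 2DG and 1.40 with GS (adjusted p = 0.00251 and 0.00439).

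No main probe set passed the limma test of the difference between GS and 2DG (0 of 8, none at an unadjusted p under 0.05, against 0.0186% of all probe sets called). The 95% interval of the difference ran from -0.34 to 0.53 for HSPA5 and from -0.25 to 1.54 for CRELD2, so that moderate differences are compatible with these arrays. The number of calls with GS rested on few arrays: it was 2 without GS replicate 1, 2 without GS replicate 2, 2 without control 1 and 3 without control 6. For TM it was 0 without control 6, and between 0 and 7 over the other settings tried.

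Counts for other genes of the pathway are given beside those of the members. Of a list of 24 ER folding partners, 20 were measured, and 15 rose with 2DG, 15 with GS and 1 with TM, with none falling. PDIA4, a disulfide isomerase, rose by 2.05 with 2DG and 2.17 with TM (adjusted p = 0.000271 and 0.0465), and DNAJB9, an Hsp40 co-chaperone of HSPA5, rose by 1.94 with 2DG and 2.36 with GS (adjusted p = 0.00552 and 0.00736). Of 16 genes of the ATF4 arm, 11 rose with 2DG and 12 with GS, among them DDIT3 (CHOP) by 2.74 and 3.65 (adjusted p = 0.00952 and 0.00781). None of the 16 passed on the single TM array, where their median change was 0.96. Of 17 measured genes of ER calcium handling, 7 rose with 2DG and 3 with GS, led by the calcium-binding NUCB2 (2.50 and 2.15; adjusted p = 0.00703 and 0.0365). Of 10 measured relatives from the same protein families outside this set, 1 rose with 2DG and 2 with GS, in both cases including the microsomal HSPA13 (1.12 and 1.41; adjusted p = 0.0279 and 0.0291).

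In HT-29 cells under GS, 7 of the 8 main probe sets rose (10.9% of all called up), again all but that of CALR. The main CALR probe set changed by 0.16 to 1.22 on these arrays, 200935_at by 0.52 to 1.51 and 214315_x_at by -0.56 to 1.24. SDF2L1 had scaled signals of 1811, 1319 and 1246, against 542, 305 and 740.1 on their controls (change 1.52, SE 0.20, adjusted p = 0.000737). The third of these arrays, exposed for 14 h, had the lowest change of the 3 for every one of the 8 genes. There the changes ran from 0.12 to 0.75, against 2.09 and 2.22 for HYOU1 on the 18 h arrays. Exposure time and the control used cannot be told apart with 1 array at 14 h. All 16 measured ATF4-arm genes and 18 of the 20 folding partners rose in HT-29 under GS.

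No main probe set passed the test of the difference in GS response between the lines (0 of 8, 4 at an unadjusted p under 0.05, against 0.377% of all called in limma). CRELD2 changed by 2.82 in HT-1080 and 1.47 in HT-29, and the 95% interval of that difference ran from 0.45 to 2.25 (adjusted p = 0.205). The lines also differed in exposure, since 1 of the 3 HT-29 arrays was exposed for 14 h: there CRELD2 changed by 0.40, against 2.35 and 1.65 on the 18 h arrays. With the 18 h arrays alone the CRELD2 difference was 0.82 (SE 0.23, adjusted p = 0.0686). The second HSPA5 probe set, 230031_at, was the only call among all 15. It rose by 3.74 in HT-1080 and 1.82 in HT-29, a difference of 1.92 (SE 0.30, adjusted p = 0.0259), and 1.76 with the 18 h arrays alone (adjusted p = 0.00828). In a limma fit without the intensity trend it was not called (adjusted p = 0.0991). It was not called without HT-1080 GS replicate 1 or 2, HT-1080 control 1 or 6, HT-29 GS replicate 1 or HT-29 control 1, with adjusted p between 0.053 and 0.253.

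Respiratory inhibitors given with 2DG were followed by lower levels of 5 of the 8 main probe sets than with 2DG alone (20.1% of all called down): HSP90B1, HYOU1, CANX, SDF2L1 and CRELD2. CRELD2 differed most, by -1.95 (SE 0.32, adjusted p = 0.000132), followed by HYOU1 with -1.56 and SDF2L1 with -1.50 (adjusted p = 0.000424 and 0.00631). HSPA5 had scaled signals of 13809, 13408, 13864, 8053 and 10193 with Met, Bu, Phen, Rot and AA, against 10285, 9643 and 8885 with 2DG alone. In scaled signals, the 3 biguanide arrays were above and the Rot array below all 3 arrays of 2DG alone. Before scaling, the trimmed mean was 93.4 with Met and 127 on 2DG replicate 1, so this order depends on the scaling. The HSPA5 difference was 0.10 (adjusted p = 0.638). It turned to -0.29 with the signals as deposited and to -0.38 with quantile normalization (adjusted p = 0.0319). MANF and the main CALR probe set did not pass, with -0.58 and 0.27, the CALR value turning to -0.12 with the signals as deposited. Another CALR probe set, 200935_at, was called lower. It changed by 0.83 to 1.03 with the biguanides and by 0.38 to 0.61 with Rot or AA, against 1.11 to 1.30 with 2DG alone. The median over the 8 genes was -0.74, against -0.11 over all tested probe sets. Without 2DG replicate 2, the only array of 2DG alone on control 4, 3 of the 8 passed. With the 3 biguanides alone as inhibitors 1 of 8 passed, and the differences turned to 0.0013 for HSP90B1 and 0.27 for SDF2L1 (adjusted p = 0.998 and 0.56). The biguanide arrays use control 3, which no array of 2DG alone uses. Biguanide and control array therefore cannot be told apart in this comparison.

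With 2DG, the scaled signals of the biguanide arrays and of the Rot and AA arrays did not overlap for 7 of the 8 main probe sets (33.4% of all tested probe sets), CANX being the exception. The biguanide arrays were higher for 6 of them and lower for that of CALR. It had 1501, 1523 and 1743 with Met, Bu and Phen and 1950.3 and 2108 with Rot and AA. CALR 214315_x_at had the same order, with 796, 910 and 821 on the biguanide arrays and 1080 and 1610 with Rot and AA. The order was reversed for CALR 200935_at, with 648, 565 and 639 on the biguanide arrays and 524 and 446 with Rot and AA. SDF2L1 had 1289.9, 1084 and 1228 with Met, Bu and Phen, against 231 on their shared control. With Rot and AA it had 207 and 198, against 254 on theirs. After scaling, the changes with the 3 biguanides, 2.45, 2.20 and 2.38, all lay above those of 2DG alone (2.06 to 2.09). Those with Rot and AA, -0.28 and -0.35, lay below 0. With the signals as deposited, the median of all tested probe sets changed by -0.53, -0.47 and -0.50 with Met, Bu and Phen. With 2DG alone it changed by 0.020, 0.018 and -0.13, so the SDF2L1 order of biguanides and 2DG alone depends on the scaling. HSP90B1 changed by 2.12 with Bu and 0.83 with AA, and MANF by 2.13 with Met and 0.51 with Rot. CRELD2 and HYOU1 were lower with every inhibitor than on any array of 2DG alone: CRELD2 changed by 1.21, 1.28 and 1.36 with the biguanides and by -0.48 and -0.29 with Rot and AA, against 2.01 to 2.31 with 2DG alone. The main CANX probe set was also lower with every inhibitor than on any array of 2DG alone (0.83 to 0.96). It stood at 0.27 to 0.34 on the biguanide arrays and at 0.27 and 0.30 with Rot and AA. Its other probe sets differed in order. CANX 208852_s_at stood at 0.40 to 0.77 with the biguanides and at 0.35 and 0.48 with Rot and AA. CANX 208853_s_at stood higher with the biguanides (0.74 to 1.16, against 0.35 and 0.38). CANX 238034_at stood lower with them (-0.099 to -0.073, against 0.24 and 0.26).

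Met, Bu and Phen share the biguanide core and differ in what it carries: methyl groups, a butyl chain or a phenethyl chain. Their doses differed, so their values are given side by side without a test. For HYOU1 the changes were 0.88 with Met at 10 mM, 1.18 with Bu at 300 µM and 1.42 with Phen at 100 µM. For HSP90B1 they were 2.01, 2.12 and 2.14.

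A comparison of the biguanides with Rot and AA was added after these values had been seen. Of the 8 genes only SDF2L1 passed, with a difference of 2.65 (SE 0.32, adjusted p = 0.00205), and it was 1 of 2 probe sets of all tested that did (0.00931%). At an unadjusted p under 0.05 there were 6 of the 8. MANF differed by 1.58 with a 95% interval of 0.85 to 2.32, and HSP90B1 by 1.30 with 0.70 to 1.91 (adjusted p = 0.185 for each). The biguanide arrays use control 3 and the Rot and AA arrays control 4, so compound and control array cannot be told apart. Without control 4 the number was 0. Without the replicate block, in which all controls of a line serve all treated arrays, 6 of the 8 passed.

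**Figure D2:**
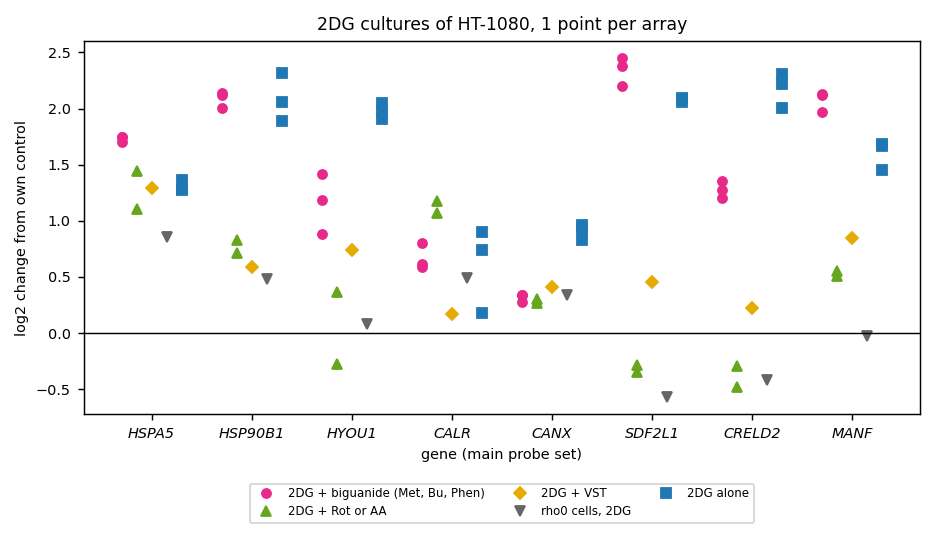
Log2 change of the 8 main probe sets from the own control on the HT-1080 arrays with 2DG, 1 point per array, for the biguanides, Rot or AA, VST, rho0 cells and, rightmost for each gene, 2DG alone. For SDF2L1 the biguanide points lie at 2.20 to 2.45, and the Rot, AA and rho0 points lie below 0.

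Under GS, Rot and AA were followed by lower levels of 7 of the 8 main probe sets than GS alone (16.4% of all called down), all but CALR. SDF2L1 had 290.3, 275 and 292 on the 3 arrays, against 1243 and 1663 with GS alone, and its control read 299. The inhibitor arrays lay within the range of the 6 HT-1080 controls (210.4 to 299), and the difference was -2.51 (SE 0.44, adjusted p = 0.000225). HYOU1 had 567, 524 and 549.9, against 2034 and 2562 with GS alone (difference -2.19, SE 0.32, adjusted p = 4.63e-05). CRELD2 stood at 0.51, 0.47 and 0.71 from the control, against 2.66 and 2.98 with GS alone. HSPA5 fell less, to 6783, 6519 and 5651, against 9891 and 9099.5 with GS alone (difference -0.61, adjusted p = 0.00705), and stayed above the 3834 of its control. HSP90B1 differed by -1.37, MANF by -1.10 and CANX by -0.97 (adjusted p = 0.000585, 0.0133 and 1.1e-06). The median over the 8 genes was -1.23, against -0.059 over all tested probe sets.

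All 3 inhibitor arrays and GS replicate 2 share control 6, and within that set the changes of HYOU1 were -0.20, -0.31 and -0.24, against 1.97. Without GS replicate 2 the number of calls was 2 of 8. The ratio of the 3′ to the 5′ control probe set of ACTB, a measure of RNA integrity that rises as RNA degrades, moved with this group. It was 1.51, 1.67 and 1.76 on GS+Rot, GS+Rot_S and GS+AA_S, against 1.26 and 1.42 with GS alone and 1.18 to 1.26 on the 6 HT-1080 controls. The same ratio for GAPDH was 0.976, 1.06 and 1.07, against 0.950 and 0.919 with GS alone. For ACTB it was 1.40 and 1.49 with TM plus Rot or AA, against 1.28 with TM alone, and 1.21 to 1.37 with 2DG plus inhibitor, against 1.25 to 1.33 with 2DG alone. Its part in the results was not tested. The labels do not say whether GS+Rot and GS+Rot_S came from 1 culture. GS+Rot_S and GS+AA_S include floating cells and the arrays of GS alone do not, so inhibitor and harvest cannot be told apart on them.

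With TM and an inhibitor against TM alone, 0 of 8 main probe sets passed in limma (0.782% of all called in either direction, and none of the 8 at an unadjusted p under 0.05). HSPA5 had 11116 and 11369.6 with Rot and AA, against 9688 with TM alone. HYOU1 had 2979 and 3344, against 2964. The 95% interval of the difference was -0.26 to 0.22 for CANX, -0.18 to 0.61 for HSPA5 and -1.50 to 0.65 for SDF2L1. For SDF2L1, with 1389 and 1354 in the inhibitor arrays, against 1843 with TM alone, a fall of more than 1 log2 unit therefore lies within the interval.

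The test of the difference itself set the inhibitor effect under GS or 2DG against that under TM. Under GS the effect was more negative for 6 of the 8 main probe sets (6.91% of all called down), with -2.29 for HYOU1, -2.31 for CRELD2 and -2.09 for SDF2L1 (adjusted p = 0.00528, 0.00826 and 0.0431). MANF and the main CALR probe set did not pass, whereas CALR 200935_at did (-1.69, adjusted p = 0.00185). Under 2DG it was more negative for CANX (-0.59) and CRELD2 (-1.93), 2 of 8 (2.74% of all; adjusted p = 0.0268 and 0.0394). The inhibitors were not the same, since the 2DG class held Met, Bu, Phen, Rot and AA and the GS and TM classes only Rot and AA. With Rot and AA only, the 2DG result was 4 of 8, and with Met, Bu and Phen only it was 0. The 2DG and GS counts are therefore not set against each other. The GS result fell to 1 of 8 without GS replicate 2 and to 3 of 8 without the arrays that include floating cells. The 2DG result fell to 1 without 2DG replicate 1, 2DG replicate 3, 2DG+AA, TM+Rot, control 2 or control 5, to 0 without 2DG replicate 2 or TM+AA, and rose to 6 without control 3.

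**Figure D3:**
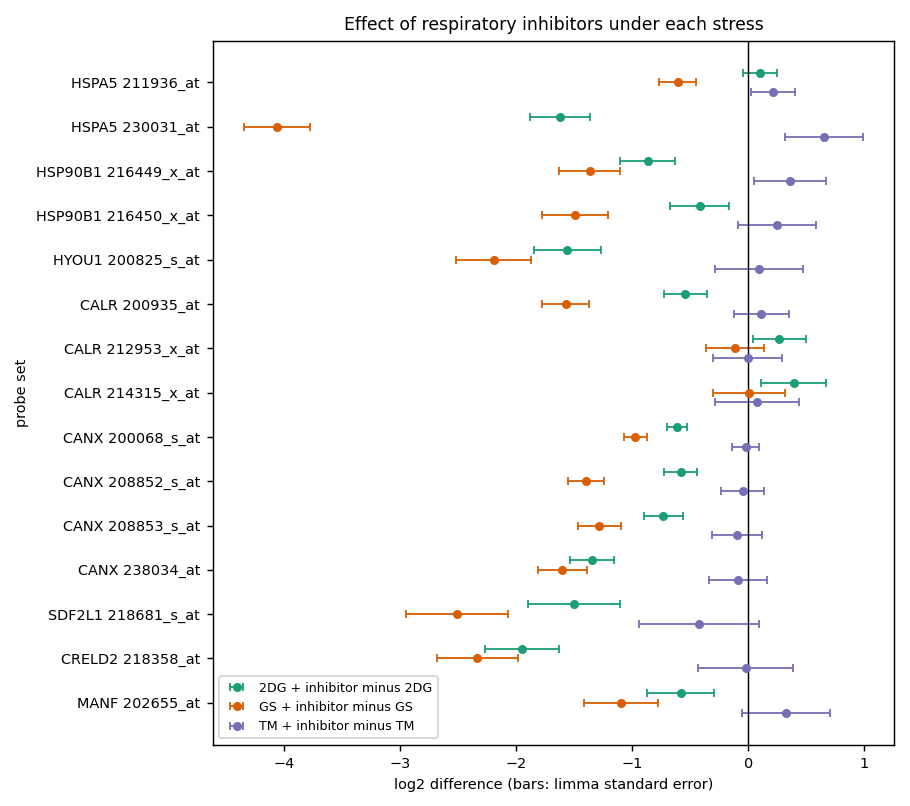
Log2 difference between arrays with a respiratory inhibitor and the same stress alone, for the 15 probe sets (rows) under 2DG, GS and TM; bars are limma standard errors. Under GS 13 of the 15 differences were called below 0, and under TM none was called.

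Counts for the other pathway lists under the inhibitors are as follows. Of the 20 measured folding partners, 13 fell with 2DG plus inhibitor against 2DG and 17 with GS plus inhibitor against GS, and 0 passed under TM. SEL1L, of the ER degradation machinery, differed by -1.88 and -3.13 (adjusted p = 0.000336 and 6.08e-06), and XBP1, a transcription factor of the response, by -2.48 under GS (adjusted p = 1.39e-05). Of the 16 ATF4-arm genes, 10 fell and 2 rose under 2DG, and 14 fell under GS, with TRIB3 at -4.07 (adjusted p = 1.85e-06). Of 17 calcium-handling genes 6 fell under 2DG and 10 under GS, including NUCB2 (-1.83 and -1.49; adjusted p = 0.002 and 0.0172). Among the relatives 5 of 10 rose and 2 fell under 2DG, where 12.7% of all tested probe sets were called up and 20.1% down. Under GS 2 of the 10 rose and 2 fell, against 13.9% of all up and 16.4% down, which is near that background. The cytosolic HSP90AB1 was among those that rose, by 0.74 and 0.38 (adjusted p = 5.55e-05 and 0.0218).

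Versipelostatin was tested with 1 array per stress and line. With 2DG, 3 of the 8 main probe sets were lower than with 2DG alone (5.04% of all called down). The differences were -1.50 for HSP90B1, -1.62 for SDF2L1 and -1.95 for CRELD2 (adjusted p = 0.0263, 0.0321 and 0.0434). With GS in HT-1080, 5 of 8 were lower (8.84% of all): CRELD2, SDF2L1, HYOU1, MANF and HSP90B1. CRELD2 had 279, against 2005 and 3280.3 with GS alone, a difference of -2.90 (adjusted p = 0.00173). HSPA5 did not pass: it had 10099.7 with GS+VST, against 9891 and 9099.5 with GS alone. Its difference was 0.11, with a 95% interval from -0.33 to 0.55. In this comparison the median of all tested probe sets was -0.038 after scaling and -0.41 with the signals as deposited. An HSPA5 difference of this size therefore depends on the scaling. On the GS+VST array 193 probe sets were brighter than the main one of HSPA5, against 48 and 80 with GS alone. In HT-29, GS+VST was below GS alone for 4 of 8 (17.6% of all): HYOU1, SDF2L1, CRELD2 and MANF. There SDF2L1 had 351, against 1811, 1319 and 1246 with GS alone and 542 on its control (difference -2.25, adjusted p = 0.000435).

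The array of 2DG with VST uses control 3, which no array of 2DG alone uses, so compound and control array cannot be told apart there. The VST counts rested on few arrays. With 2DG the number was 1 without 2DG replicate 3 or control 5 and 0 without 2DG replicate 1 or 2, control 2 or control 4. With GS it was 0 without GS replicate 1 in HT-1080 and 2 without GS replicate 1 in HT-29. In the self-test on simulated data, 57% of changes of 2 log2 units and 7% of changes of 1 were recovered for 2DG with VST.

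In cells without mitochondrial DNA, members fell short of the parental response under 2DG and GS, and no call was made under TM. Under 2DG the change from the own control was smaller in rho0 than in parental HT-1080 cells for 5 of the 8 genes (4.65% of all called down): HSP90B1, HYOU1, SDF2L1, CRELD2 and MANF. SDF2L1 had 174, against 262 on its rho0 control, a change of -0.57 that stood -2.65 from that of parental cells (SE 0.40, adjusted p = 0.00361). HSPA5 had 6151, against 3389.7 on the control, a change of 0.86 whose difference from the parental one did not pass (-0.45, 95% interval -0.99 to 0.10). Under GS, with floating cells included, 4 of 8 were smaller (1.35% of all called down). The differences were -2.31 for HYOU1, -0.92 for CANX, -2.33 for SDF2L1 and -3.24 for CRELD2 (adjusted p = 0.043, 0.0286, 0.0243 and 0.0201). The parental GS arrays do not include floating cells, so mtDNA status and harvest cannot be told apart there. The ACTB 3′ to 5′ ratio was 1.46 on the rho0 GS array, against 1.23 on its control and 1.26 and 1.42 with parental GS. Its part in the rho0 results was not tested.

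Under TM the rho0 array showed changes of 3.38 for CRELD2, 2.89 for SDF2L1 and 2.46 for HYOU1, against 2.93, 2.60 and 2.18 on the parental array. All 8 genes except CANX had the larger value in rho0 cells, yet 0 of 8 passed in limma with 1 array on each side (0% of all called, none of the 8 at an unadjusted p under 0.05). In HT-29 rho0 cells under 14 h of GS, 7 of the 8 genes were below their own control, with a median change of -0.29. SDF2L1 had 349, against 615 on the control, and its change stood -2.33 from that of HT-29 cells (adjusted p = 0.0406). It was the only call of the 8 (0.112% of all called down), and 7 were at an unadjusted p under 0.05.

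The rho0 counts moved with single arrays. Under 2DG they were 1 without 2DG replicate 1 or control 2, 2 without 2DG replicate 2 or control 4, and 3 without 2DG replicate 3 or control 5. Under GS in HT-1080 they were 0 without any 1 of GS replicate 1, GS replicate 2, control 1 or control 6. In HT-29 they were 0 without GS replicate 1 or control 1, and 7 without GS replicate 3 or its control 3, that is, against the 18 h arrays alone. With the 14 h array as a group of its own, the comparison at the same time gave 0 calls.

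The 2 probe sets of HSPA5 responded unequally. Both rose under every stress alone, 230031_at by 2.16 with 2DG, 3.74 with GS and 3.42 with TM (adjusted p = 0.000213, 3.93e-05 and 0.00257), against 1.31, 1.40 and 1.41 for 211936_at. With GS the signal of 230031_at was 2557 and 2369, against 149 and 215 on the controls. With Rot or AA added it was 176, 124 and 161, against 132 to 215 on the 6 HT-1080 controls. Of the 3 arrays 2 lay within the range of the controls and 1 just below it, while for 211936_at all 3 lay above the highest control (4242). The ACTB 3′ to 5′ ratio, given above for these arrays, was higher on them too, and its part in the unequal response was not tested. The difference between the 2 probe sets in the inhibitor effect was -3.46 under GS (SE 0.29, adjusted p = 1.57e-05) and -1.72 under 2DG (SE 0.27, adjusted p = 0.000844), tested over 10012 probe set pairs of which 4.88% and 4.38% were called in that direction.

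With 2DG and an inhibitor, 230031_at had 369.5, 510.4, 529, 190.5 and 190.0, against 1343, 774 and 444 with 2DG alone (difference -1.62, SE 0.26, adjusted p = 0.000112). The ranges overlapped, since 2 biguanide arrays were above the lowest 2DG array, and Rot and AA were lowest. On the HT-1080 array of GS with VST, 230031_at changed by 0.27 and 211936_at by 1.59, in the opposite order to GS alone. In rho0 cells 230031_at changed by 0.13 with 2DG and -0.037 with GS, against parental means of 2.16 and 3.74 (differences -2.04 and -3.77; adjusted p = 0.00961 and 0.00231). It changed by 4.04 with TM, against 3.26 in parental cells.

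The brightness of the main probe set is given beside this. On the control arrays 355 to 527 of all probe sets were brighter than 211936_at, and on the treated arrays 29 to 391. The scaled signals also reached unequal heights. The highest was 16835 to 21070 where a compound was added to 2DG or GS and 17692 to 19245 in rho0 cells with 2DG or GS. With stress alone it was 12571 to 15606, and with TM plus Rot or AA 13581 and 13935. Whether a ceiling of the signal or this stretch of the bright signals has a part in the unequal response was not tested. With the 3 biguanides alone, the probe set difference under 2DG was -1.30 and missed the threshold (adjusted p = 0.0501).

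**Figure D4:**
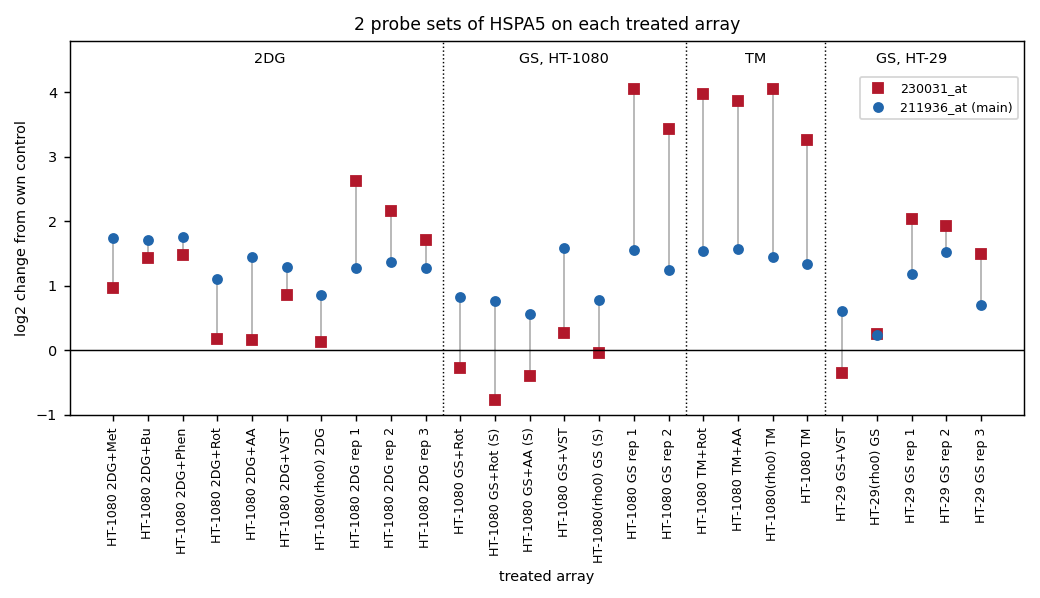
Log2 change from the own control of the 2 HSPA5 probe sets (squares 230031_at, circles 211936_at) on each of the 26 treated arrays, joined by a line and ordered by stress, with compound and rho0 arrays left of the stress alone. With TM both inhibitor arrays and the rho0 array keep the high 230031_at values, and with GS they lie near or below 0.

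CALR, which buffers calcium in the ER lumen, had 3 probe sets that did not behave alike. In GS with inhibitors against GS, 200935_at fell, with a difference of -1.57 (adjusted p = 1.28e-05), whereas 212953_x_at and 214315_x_at differed by -0.11 and 0.0071 (adjusted p = 0.783 and 0.988). The unequal response of 200935_at and 212953_x_at was called under GS (-1.46, SE 0.34, adjusted p = 0.00914) but not under 2DG (-0.81, adjusted p = 0.108). On HT-1080 controls 1 and 2, 212953_x_at read 408 and 425, and on the other 4 controls 927 to 994. The arrays of stress alone in those same sets, 2DG replicate 1 and GS replicate 1, read 482 and 471. GS+VST, also on control 1, read 654. The other HT-1080 arrays of 2DG or GS alone read 1584 to 1920.2. Among the HT-1080 arrays of 2DG or GS alone, the changes of 212953_x_at were lowest on 2DG replicate 1 and GS replicate 1 (0.18 and 0.21). For 200935_at the changes on them were 1.11 and 1.46, against 1.18 to 1.33 on the others.

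All 4 tested probe sets of CANX fell in both inhibitor comparisons. The main one, 200068_s_at, differed by -0.62 under 2DG and -0.97 under GS, and 238034_at by -1.34 and -1.60 (adjusted p = 3.69e-05 and 1.55e-05). The gap between these 2 was called in both, at -0.73 under 2DG and -0.63 under GS (adjusted p = 0.0149 and 0.0433). On the 3 biguanide arrays 238034_at stood at -0.10, -0.073 and -0.073, against 1.16 to 1.63 with 2DG alone. The difference between the 2 probe sets of HSP90B1 passed in neither (0.45 and -0.12; adjusted p = 0.281 and 0.823). Over the 26 treated arrays, the changes of the CANX probe sets correlated with each other at r = 0.78 to 0.94, and those of CALR 200935_at and 212953_x_at at r = 0.067. The arrays share controls, so these values are given as a description.

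In unstressed cells, levels depended on the line. HT-29 controls were above HT-1080 controls for 6 of the 8 main probe sets (24.6% of all called up) and below for 1, CALR (30.8% of all called down). HYOU1 had 1033, 1153 and 1489 in HT-29, against a lowest value of 538, a median of 615 and a highest of 695 in HT-1080. The groups did not overlap, and the difference was 0.99 (SE 0.13, adjusted p = 1.12e-05). CRELD2 and SDF2L1 were higher in HT-29 by 1.05 and 0.97, CANX by 0.50, HSPA5 by 0.32 and HSP90B1 by 0.30 (adjusted p = 8.88e-05, 0.0014, 8.98e-05, 0.008 and 0.0288). The main CALR probe set was lower, with a difference of -1.11 (adjusted p = 0.00534), and its 2 low HT-1080 controls lay within the HT-29 values of 274 to 491. CALR 214315_x_at read 177 to 319 in HT-29 and 223 to 765 in HT-1080. For CALR 200935_at the HT-29 controls, 169, 261 and 165, lay within the HT-1080 range of 143 to 341. The 230031_at probe set of HSPA5 went the other way from the main one and was lower in HT-29 (-0.60, adjusted p = 0.0092).

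Unstressed rho0 cells, set against unstressed HT-1080 cells, gave no call among the 8 (0 of 8 in limma, 1 at an unadjusted p under 0.05, against 10.9% of all called). MANF had 612 and 756 in rho0 controls, against 1092 at the highest and 846 at the lowest in parental ones (difference -0.42, adjusted p = 0.154). With the signals as deposited, 3 of the 8 passed, all lower in rho0.

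**Figure D5:**
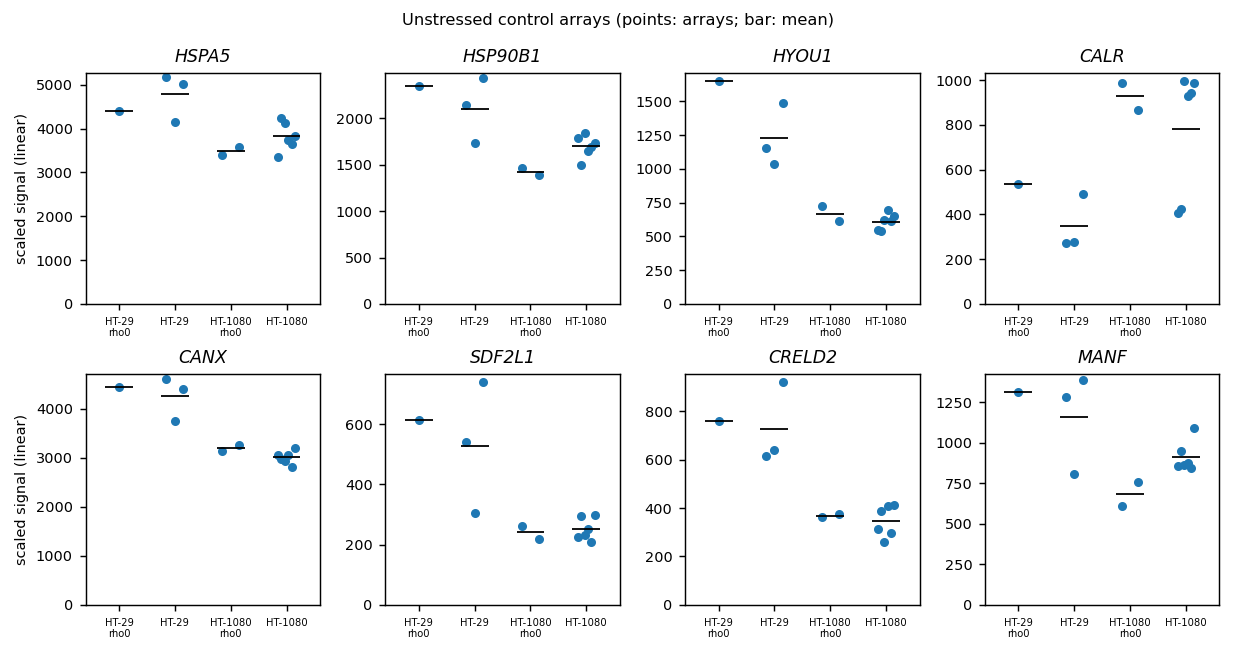
Scaled signal of the main probe set of each gene on the 12 unstressed control arrays, on linear axes from 0, for HT-29 rho0 (1 array), HT-29 (3), HT-1080 rho0 (2) and HT-1080 (6); bars are means. HYOU1 does not overlap between the lines, and 2 of the 6 HT-1080 points of CALR lie apart at about 400.

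Over the 26 treated arrays, the genes whose changes were most like the mean of the 8 main probe sets were DNAJB11 (r = 0.97), CDK2AP2 (0.94), PDIA4 (0.93), MYDGF (0.93) and ERP44 (0.93). DNAJB11 is an ER co-chaperone of the Hsp40 family, and PDIA4 and ERP44 are thiol oxidoreductases of the ER. For HSPA5 211936_at alone they were GLIS3 (0.82), SSR3 (0.78), TIFA (0.78), DERL1 (0.77) and DNAJB9 (0.77), and for 230031_at SEL1L (0.92), TTC17 (0.91), MAGT1 (0.90), SAMTOR (0.90) and SEL1L3 (0.89). The 2 lists shared no gene. Among the main probe sets of the 8 genes, those of SDF2L1 and MANF changed most alike (r = 0.95), followed by HSP90B1 and MANF (0.93). The 2 probe sets of HSPA5 had r = 0.57, lower than that of 230031_at with HYOU1 (0.91).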

How the data were processed

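Total RNA was labelled as biotinylated cRNA, per the labels' protocols, and read on 38 Affymetrix arrays of 54675 probe sets. The deposited intensity values are MAS5 signals on a linear scale, per the submitters' processing notes, whose version is not given in the sources used here. Of the probe sets, 41097 have 1 gene symbol, 1801 several and 11777 none in the platform's annotation, and 232 have a missing value on up to 11 arrays. Arrays were scaled to a common 2% trimmed mean of 114, 5% of it was added, and log2 was taken. Probe sets with 1 symbol, no missing value and at least 40% of the trimmed mean on at least 2 arrays were tested, 21480 in all, for 11386 genes.

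Linear models were fitted across all of them with limma 3.58.1 in R 4.3.3 (intensity trend, Benjamini-Hochberg adjusted p, threshold 0.05), with the control array named in each treated sample's description as a block. The pairing therefore comes from the descriptions. Stress groups were fitted with 5 residual degrees of freedom. Inhibitors of 1 stress were pooled as a class (12 degrees of freedom), and controls were compared with 8. Where an array is alone in its group, it is assumed to vary like the others. Differences between 2 probe sets of a gene were fitted over 10012 pairs. Intervals are 95% intervals from the same fits.

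The 8 members, the background lists and the tests were chosen with earlier results of these data known. Members were all named. From each background list, the members with the largest changes past the threshold could be named. Likeness is the Pearson correlation of log2 changes over the 26 treated arrays, and the 5 highest genes are given. The fits were checked on simulated data with known changes, and in 2DG against control 69% of changes of 1 log2 unit and 97% of changes of 2 were recovered. Figures were drawn with matplotlib 3.10.9. Precision is limited by how few arrays each group has.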

Additional observations from a re-analysis of the deposited data

Results flagged for a closer look

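Some stress or inhibitor effects differed between groups by the test of the difference itself, over the 15 probe sets (limma, Benjamini-Hochberg adjusted p over all tested probe sets). Between the lines, the GS response of HSPA5 230031_at was larger in HT-1080 than in HT-29 by 1.92 (adjusted p = 0.0259).

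The inhibitor effect under 2DG was more negative than that under TM for 4 probe sets, by -2.28 for HSPA5 230031_at, -0.59 for CANX 200068_s_at, -1.26 for CANX 238034_at and -1.93 for CRELD2. Under GS it was more negative than under TM for 12. The largest of these was -4.72 for HSPA5 230031_at (adjusted p = 1.49e-05), against -0.82 for HSPA5 211936_at. The 2 probe sets of HSP90B1 gave -1.73 (216449_x_at) and -1.74 (216450_x_at), HYOU1 gave -2.29, and CALR 200935_at gave -1.69. The 4 of CANX gave -0.95 (200068_s_at), -1.35 (208852_s_at), -1.19 (208853_s_at) and -1.52 (238034_at). SDF2L1 gave -2.09 and CRELD2 -2.31. These comparisons share the 3 TM arrays and control 6, and only the 2DG side also holds Met, Bu and Phen.

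The response to 2DG was smaller in rho0 than in parental HT-1080 cells for 7 probe sets, with differences of -2.04 for HSPA5 230031_at, -1.61 for HSP90B1 216449_x_at, -1.89 for HYOU1 and -1.28 for CANX 238034_at. SDF2L1 differed by -2.65, CRELD2 by -2.59 and MANF by -1.62. The response to GS was smaller in rho0 cells with floating cells included than in parental cells for 7 as well, with -3.77 for HSPA5 230031_at, -2.31 for HYOU1, -2.33 for SDF2L1 and -3.24 for CRELD2. In the same comparison CANX differed by -0.92 (200068_s_at), -1.19 (208853_s_at) and -1.60 (238034_at). In HT-29, the GS response of SDF2L1 was smaller in rho0 than in parental cells by a difference of -2.33. Each rho0 value rests on 1 array per stress, and no cause was tested.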

How the results depend on the processing

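Over 23 results, 197 of 233 alternatives other than leaving out an array kept the number of members called within 1.5 times, or the value on its side of the threshold, and 36 did not. The cause was not tested for any of them. The number for TM was 0 with an offset of 1%, 1 without the filter, 0 without the intensity trend and 0 with 1 probe set per gene. For rho0 under 2DG it was 3 with the offset of 1%, 3 without the filter and 1 without the trend, and for rho0 under GS 2 without the filter and 0 without the trend. For HT-29 rho0 under GS it was 0 without the filter, without the trend, with 1 probe set per gene or with the 14 h array apart, and 3 with the signals as deposited. The signals as deposited gave 5 for 2DG with VST, 7 for HT-29 GS with VST and 3, all lower, for rho0 controls. Without the trend there were 0 for 2DG with VST, 2 for GS with VST and 0 for the biguanide comparison. The inhibitor effect under 2DG against TM gave 0 without the filter or the trend, 4 with quantile normalization or the signals as deposited, 1 without the arrays marked S, 0 with Met, Bu and Phen only and 4 with Rot and AA only. That under GS against TM gave 3 without the arrays marked S. With Met, Bu and Phen only, 2DG with inhibitors gave 1, and the HSPA5 probe set difference was -1.30 (adjusted p = 0.0501).

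Without the replicate block, the numbers were 7 for TM, 5 for 2DG with VST, 0 for HT-29 rho0 under GS, 3 for 2DG with inhibitors, 0 for the inhibitor effect under 2DG against TM and 6 for the biguanide comparison, and the block moved no other number by over 1.5 times. In 2DG with inhibitors against 2DG, CALR 200935_at was called lower with the block and turned to 0.079 without it (adjusted p = 0.844).

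Other single values that turned were CANX 200068_s_at in HT-29 GS with VST (-0.42 with quantile normalization and -0.42 with the signals as deposited; adjusted p = 0.0233 and 0.0192), and, in 2DG with inhibitors, HSPA5 211936_at (-0.38 with quantile normalization) and, with Met, Bu and Phen only, HSP90B1 216449_x_at (0.0013) and SDF2L1 (0.27). Of all single values under an alternative, 4658 kept direction and side, 140 became stronger, 329 weaker and 6 turned.

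Leaving out 1 array gave 3 to 6 calls for 2DG with inhibitors, 2 to 7 for GS with inhibitors, 0 to 6 and 1 to 5 for the inhibitor effects under 2DG and GS against TM, and 0 to 1 for the biguanide comparison. It gave 7 to 7 for 2DG, 2 to 3 for GS, 0 to 0 for TM and 6 to 8 for HT-29 GS. For VST it gave 0 to 1 with 2DG, 0 to 4 with GS and 2 to 6 with GS in HT-29. For rho0 it gave 1 to 3 with 2DG, 0 to 0 with GS and 0 to 7 in HT-29, and for HT-29 against HT-1080 controls 5 to 8. The HSPA5 probe set difference ranged between -1.93 and -1.55 under 2DG and between -3.69 and -3.29 under GS.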
